A study of Mus musculus with 4 samples.

Results

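Imprinted genes are described here in cultured mouse astrocytes labelled Tet1 wild type (WT) or Tet1 knockout (KO). The genes were a list of 41 well-known mouse imprinted genes, matched by exact symbol, and 39 of them were found among the 25393 genes listed. These 39 genes lie in 18 imprinted domains on 9 chromosomes, and all 39 passed the filter on low values, while Magel2 and Phlda2 were not analysed here. The values are normalized counts, that is, reads per gene divided by a size factor for each library with no correction for gene length. Levels were compared between genes only as fragments per kilobase of gene, scaled to library size (FPKM), computed from the recovered reads.

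An imprinted gene is transcribed mainly or wholly from one parental copy. The choice is held by methylation of a nearby imprinting control region, set in the egg or sperm and kept after fertilization by DNMT1 with UHRF1 and by the zinc finger proteins ZFP57 and ZFP445 with TRIM28. TET1 oxidizes 5-methylcytosine to 5-hydroxymethylcytosine and is known for its part in erasing these marks in germ cells. Many imprinted genes control growth and are known for high levels in the embryo, placenta and developing brain. The counts here do not separate the parental copies, so they give the sum of both alleles, and in a bulk culture fewer cells of a type and less RNA per cell cannot be told apart.

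The series held 4 libraries of total RNA, 2 from WT and 2 from KO (tet1-/-) astrocytes of untreated C57BL/6 pups at postnatal day 1, taken from cortex and hippocampus. Both genotypes were handled alike, with cells of 2 pups pooled for each isolation, grown in a coated flask for about 7 days, purified by shaking at 260 rpm and kept for another 24 hours. The knockout was constitutive and so not limited to astrocytes, and the parental genotypes are not given in the sources used here. Nothing in the labels says that replicates came from separate litters, so that p-values measure only the spread between these libraries.

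Reads on genes ranged from 18749610 to 22673555 per library. The targeted gene, Tet1, had 266 and 121 normalized counts for WT and 173 and 463 for KO (limma adjusted p = 0.691), so it was no lower in KO. These counts cover the whole gene and not the deleted part alone, so the KO labels could not be checked from the data, and every direction rests on them. The KO replicates differed from each other more than the WT replicates did, since 28.6% of genes averaging 50 or more lay over 2-fold apart between them, against 10.7%. Of the 9 astrocyte markers, Gfap, Aldh1l1 and Slc1a3 had over 27 FPKM in every library, S100b was low (2.50 FPKM over the 4 libraries) and Slc1a2 was at 2.25 FPKM in KO replicate 2. Gfap differed widely between the KO replicates (174853 and 9945 normalized counts). All 10 proliferation genes were called higher in KO, their sum being 289 and 1432 in WT and 3716 and 7261 in KO, and 9 of 12 microglial markers were called lower, with sums of 2297 and 3813 in WT and 1015 and 507 in KO. Of the remaining lists, 3 of 8 neuron, 3 of 9 fibroblast and meningeal, 1 of 9 oligodendrocyte lineage and 1 of 4 pericyte genes were called. None was called of the endothelium list or of the choroid plexus and ependyma list. Of the astrocyte markers, 2 of 9 were called lower, and 13.7% of all genes were called in either direction. Olig1 (oligodendrocyte lineage) had 195 FPKM over the 4 libraries and Foxj1 (ependyma) 115 FPKM, against medians of 0.763 and 4.69 FPKM for their lists. In KO replicates 1 and 2, Olig1 had 15319 and 7074 normalized counts and Foxj1 had 7787 and 1549. Xist, transcribed in female cells, had 8.54 and 0.920 for WT and 2896 and 13367 for KO, and 4 Y-linked genes together had 3765 and 1909 for WT and 0 and 830 for KO, so that the sex of the pooled pups moved with the label and cannot be told apart from it. The part of these differences in the values of the imprinted genes was not tested.

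The promoter windows of Mest, Nap1l5 and Slc22a18 are shown because these were the 3 imprinted genes called by DESeq2. Each is the 250 bases before a RefSeq transcript start on GRCm38.p6, read in the direction of transcription, with CpG dinucleotides, the sites that carry imprint methylation, in capitals. Where a gene had several starts, the window with the most CpG was taken. They lie at chr6:30737800-30738049 (Mest, plus strand), chr6:58907127-58907376 (Nap1l5, minus strand) and chr7:143473539-143473788 (Slc22a18, plus strand).
Mest: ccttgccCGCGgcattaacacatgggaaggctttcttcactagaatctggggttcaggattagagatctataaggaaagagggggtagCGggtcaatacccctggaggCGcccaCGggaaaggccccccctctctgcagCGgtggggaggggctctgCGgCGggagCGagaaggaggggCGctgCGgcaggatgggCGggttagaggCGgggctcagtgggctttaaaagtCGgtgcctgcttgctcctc
Nap1l5: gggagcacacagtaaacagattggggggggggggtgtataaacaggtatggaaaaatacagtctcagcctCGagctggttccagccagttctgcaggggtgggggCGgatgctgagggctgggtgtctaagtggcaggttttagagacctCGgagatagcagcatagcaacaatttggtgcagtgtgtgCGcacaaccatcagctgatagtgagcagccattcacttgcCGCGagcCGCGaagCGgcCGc
Slc22a18: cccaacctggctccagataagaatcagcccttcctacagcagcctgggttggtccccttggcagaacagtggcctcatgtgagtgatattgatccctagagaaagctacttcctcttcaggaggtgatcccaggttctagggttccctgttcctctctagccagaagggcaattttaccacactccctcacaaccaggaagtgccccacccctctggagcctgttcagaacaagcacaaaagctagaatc

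The Mest window held 14 CpG and 2 copies of the hexamer TGCCGC or its complement GCGGCA, which is the motif bound by ZFP57 when methylated. The Nap1l5 window held 10 CpG and 1 hexamer, and the Slc22a18 window held neither. Of the 39 genes, 33 had an entry in the RefSeq promoter table, with 51 windows in all. A hexamer was found on either strand in 8 of the 51 windows (15.7%), against 2850 of all 32851 windows (8.68%), and the median number of CpG was 11 against 6. Such a match is only a description of these letters. The 8 windows include 2 nearly identical ones of Mest, starting at 30737800 and 30737803. The hexamer itself contains a CpG, so its share cannot be read apart from the higher number of CpG. Cdkn1c, Rtl1, Sgce, Peg10, H19 and Impact had no entry.

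Of the 39 imprinted genes, 4 were called higher (Mest, Dlk1, Peg10 and Tssc4) and 4 were called lower (Slc22a18, Nap1l5, Zrsr1 and Cdkn1c) in the libraries labelled KO at an unadjusted p under 0.05 by limma, the p-value criterion that the study itself used. The same rule called 1004 of 22094 genes higher (4.54%) and 2028 lower (9.18%), 13.7% in all, so that 8 of 39 is read against that share. After Benjamini-Hochberg adjustment limma called 0 of the 39 and 0 of all genes (0.0%), and edgeR on the recovered reads also called 0 (0.0%), while its unadjusted p was under 0.05 for 934 genes higher (4.23%) and 1799 lower (8.14%), 12.4% in all. DESeq2 on the recovered reads gave an adjusted p for 36 of the 39 and called Mest higher and Slc22a18 and Nap1l5 lower, against 288 higher (1.69%), 818 lower (4.8%) and 6.5% in all of 17024 genes.

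The calls depended on single libraries. With WT replicate 1 left out, Mest alone of the 39 was called, where 5.14% of all genes were. With WT replicate 2 left out, Mest, Slc22a18, Dlk1 and Peg10 were called together with H19, where 6.25% of all genes were. With KO replicate 1 left out, 12 imprinted genes were called beside 21.9% of all genes, and with KO replicate 2 left out 11 were called beside 13.4%. In both fits 6 of the 8 were among them (the same 6 genes, Mest, Slc22a18, Nap1l5, Cdkn1c, Tssc4 and Zrsr1). Mest was thus the one gene called in all 4 of these fits.

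The whole list was spread to both sides of no change. Fold changes were above 0 for 17 genes and below 0 for 22, with a median of -0.20 (log2, KO minus WT) against -0.07 for all genes tested, and the median became 0.25 when KO replicate 1 was left out. Both KO libraries were above both WT libraries for 9 of the 39 genes and below for 11, where 22.5% and 25.4% of all genes did so (47.9% in either direction), so these counts were near the background. The 15 genes classed as maternally expressed had a median of -0.31 with 1 called higher and 2 lower (20%). The 19 classed as paternally expressed had a median of -0.20 with 3 called higher and 2 lower (26.3%), where 13.7% of all genes were called. The 5 genes classed as depending on the cell type or transcript (Ube3a, Grb10, Blcap, Gnas and Inpp5f) had a median of 0.05 and none called. These classes are general ones, and which copy was expressed in these cells was not measured. Other members, such as Igf2r, can also depend on the cell type.

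**Figure D1:**
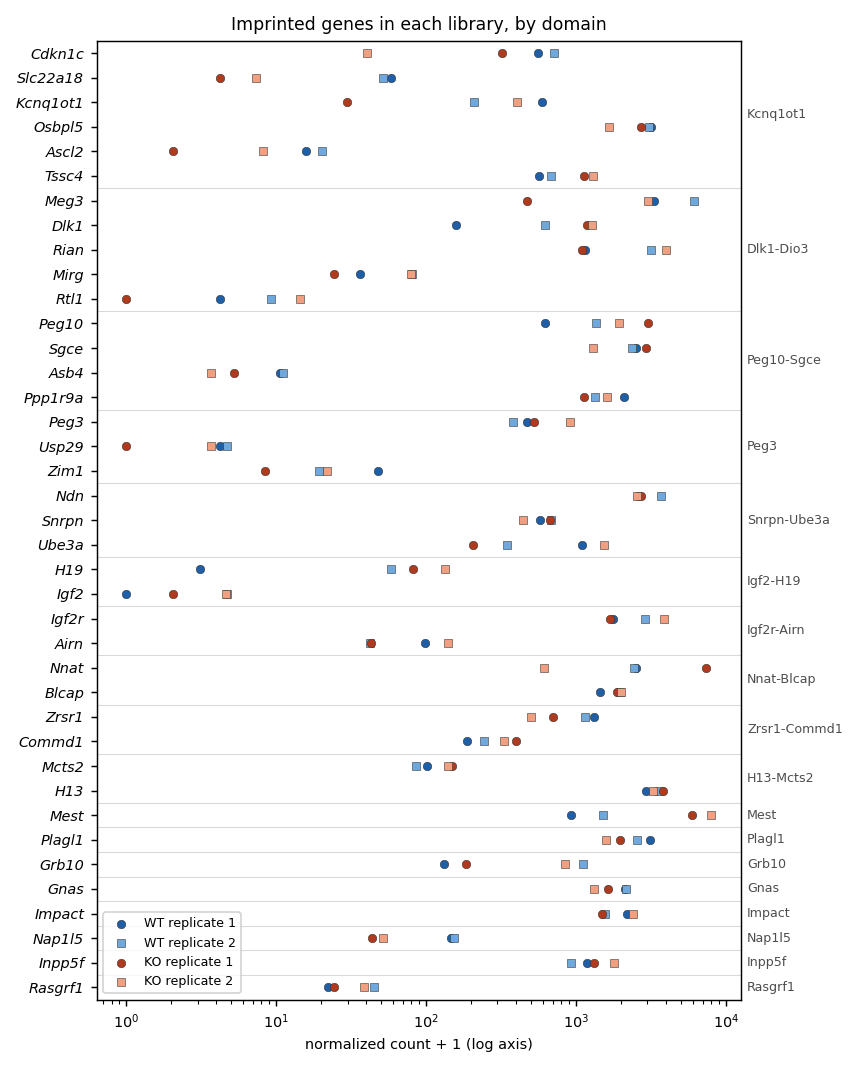
Normalized count plus 1 (log axis) of each of the 39 imprinted genes, grouped by domain, with a point for each of the 4 libraries (blue, WT; red, KO). The points of Mest, Slc22a18 and Nap1l5 separate by label, whereas those of Nnat, Kcnq1ot1 and Grb10 are wide apart within a label.

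**Figure D2:**
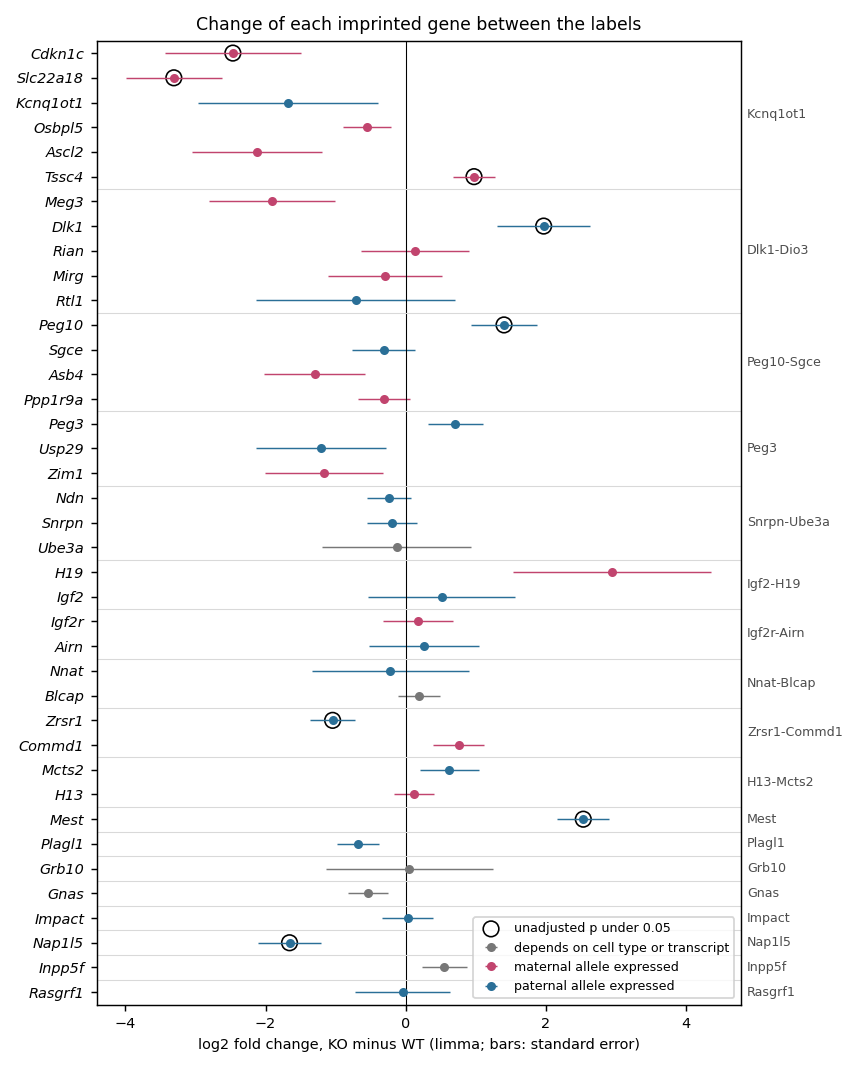
Log2 fold change of each imprinted gene, KO minus WT, from limma, with bars of 1 standard error. Colours give the parental copy that each gene is classed under, and rings mark the 8 genes at an unadjusted p under 0.05. Values run from -3.31 for Slc22a18 to 2.95 for H19, and H19, which has the largest bar among the higher genes, has no ring.

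Mest, a paternally expressed gene for an alpha/beta hydrolase-fold protein linked to growth, was higher in the libraries labelled KO in every fit run. Mest (ENSMUSG00000051855, chromosome 6, 30723547 to 30748465, plus strand, GRCm38) had 925 and 1523 normalized counts for WT and 5924 and 8002 for KO. Both KO libraries were above both WT libraries by a wide margin. The means were 1224 ± 423 and 6963 ± 1470 (SD, n = 2), a 5.69-fold difference, and the log2 fold change was 2.54 with a standard error of 0.37 (limma, Benjamini-Hochberg adjusted p = 0.127). DESeq2 gave 2.51 with an adjusted p of 3.61e-05. Leaving out each library in turn kept the fold change between 2.18 and 2.89. Copg2, the gene that overlaps the Mest locus from the other strand, had 1469 and 1468 in WT and 1765 and 1240 in KO, a log2 fold change of 0.01. None of the 4 protein-coding genes tested within 200 kb of Mest was called by limma at an unadjusted p under 0.05, but DESeq2 gave an adjusted p for 2 of them and called 1 higher. The sum of the proliferation genes given above placed the libraries in the same order as Mest did, and whether the 2 go together was not tested.

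The Kcnq1ot1 domain on chromosome 7 held 6 of the genes, of which Slc22a18 and Cdkn1c were called lower and Tssc4 higher. That is 50% of a small number, where 13.7% of all genes were called. In this domain the long noncoding RNA Kcnq1ot1 is made from the paternal copy, and protein-coding genes around it can be silenced on that copy. Whether each of them was expressed from the maternal copy alone in these cells was not measured. Slc22a18 (ENSMUSG00000000154, 143473736 to 143499334, plus strand), a membrane transporter of the organic cation type, had 57.6 and 50.6 normalized counts for WT and 3.21 and 6.31 for KO. In KO it was far below WT in either library, and KO replicate 1 stood at 3 reads, the floor used here. The means were 54.1 ± 4.98 and 4.76 ± 2.19 (SD, n = 2), that is 109 reads in WT against 10 in KO, a ratio of 11.0 with an exact 95% interval of 5.76 to 23.6 for counting error only. The log2 fold change was -3.31 with a standard error of 0.68 (limma adjusted p = 0.183), and DESeq2 gave -3.49 (adjusted p = 0.00541). The fold change stayed between -3.71 and -2.91 with each library left out, but the unadjusted p was 0.0537 without WT replicate 1.

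Cdkn1c (ENSMUSG00000037664, 143458339 to 143461050, minus strand) codes for p57, an inhibitor of cyclin-dependent kinases that holds cells out of the cycle. It had 560 and 712 normalized counts for WT and 321 and 39.7 for KO, so both KO libraries were lower but differed widely from each other. The log2 fold change was -2.47 with a standard error of 0.97 (limma adjusted p = 0.363) and ran from -3.96 to -0.97 over the fits that left out a library. Without WT replicate 1 or 2 it was -2.64 and -2.29 and was not called, nor was it with edgeR (-1.85), with a pseudocount of 0.1, with no filter, with a mean of at least 10 or after quantile normalization. Tssc4 (ENSMUSG00000045752, 143069249 to 143071093, plus strand), known as a factor in assembly of the spliceosome, had 565 and 679 in WT and 1137 and 1307 in KO. Each KO library was thus well above each WT library, with means of 622 ± 80.01 and 1222 ± 120 (SD, n = 2), a log2 fold change of 0.98 and a standard error of 0.30 (limma adjusted p = 0.284, DESeq2 adjusted p = 0.217). Leaving out WT replicate 1 or 2 ended the call for Tssc4, at 0.84 and 1.11.

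The other members of this domain were not called in the fit reported here. Ascl2, a transcription factor of the trophoblast and of intestinal stem cells, was low, with 14.9 and 19.3 normalized counts for WT and 1.07 and 7.21 for KO (-2.13, limma adjusted p = 0.396). Osbpl5, an oxysterol-binding protein, had 3151 and 3066 in WT and 2721 and 1658 in KO (log2 fold change -0.55). Kcnq1ot1 itself had 590 and 209 in WT and 28.9 and 403 in KO, so its KO libraries lay on both sides of a WT library and differed from each other 13.9-fold. Its log2 fold change was -1.68 with a standard error of 1.28, and it lies antisense to Kcnq1, whose reads cannot be told from its own where counting is not by strand. Tssc4 overlaps Trpm5 on the other strand and carries the same limit. Of 9 protein-coding neighbours of the domain, 2 were called higher and 1 lower (33.3%, beside 13.7% of all genes), with a median of 0.40.

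In the Dlk1-Dio3 domain on chromosome 12 the paternally expressed coding genes and the maternally expressed noncoding RNAs are known to be controlled by one germ-line methylation mark. Dlk1 (ENSMUSG00000040856, 109452823 to 109463336, plus strand), a transmembrane protein related to Notch ligands that marks precursor cells, had 158 and 622 normalized counts for WT and 1177 and 1287 for KO. Both KO libraries were higher and close to each other, while the WT libraries differed several-fold. The means were 390 ± 328 and 1232 ± 77.5 (SD, n = 2), a log2 fold change of 1.97 with a standard error of 0.67 (limma adjusted p = 0.316, DESeq2 adjusted p = 0.160). It was called in 1 of the 4 fits that left out a library, that without WT replicate 2 (2.95), and was 0.98 without WT replicate 1, 2.03 without KO replicate 1 and 1.91 without KO replicate 2.

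The maternally expressed RNAs of the domain did not move as a block. Meg3 (ENSMUSG00000021268, 109541001 to 109571726), the first of them, had 3304 and 6116 normalized counts for WT and 470 and 3047 for KO. Both KO libraries were below both WT libraries, but KO replicate 2 was near WT replicate 1, and the log2 fold change of -1.91 had a standard error of 0.90 (limma adjusted p = 0.430). Rian, which hosts small nucleolar RNAs downstream of Meg3, had 1147 and 3182 in WT and 1104 and 3990 in KO (0.14, standard error 0.77). Mirg, the host of a large microRNA cluster, had 35.2 and 80.002 in WT and 23.5 and 78.4 in KO (-0.29). Rian and Mirg therefore split by replicate number and not by label. Rtl1, a retrotransposon-derived gene expressed from the paternal copy, had 3.20 and 8.28 in WT and 0 and 13.5 in KO, at or near the floor of 3 reads.

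From a second list of 31 imprinted genes outside the 41, Dio3 and Begain lie at opposite ends of the same domain, and with Pon3 they were the genes called of the 21 tested, all lower in KO. These 3 are 14.3% of the 21, a share near the 13.7% of all genes. Dio3, which inactivates thyroid hormone, had 389 and 1142 normalized counts for WT and 65.3 and 0 for KO (-6.36, limma adjusted p = 0.287, DESeq2 adjusted p = 0.496). Begain, a postsynaptic density protein upstream of Dlk1, had 308 and 392 in WT and 10.7 and 33.3 in KO (-4.12, limma adjusted p = 0.144), and DESeq2 gave an adjusted p of 7.2e-07. Begain, called lower, and Dlk1, called higher, thus lay on opposite sides. The median of the 21 genes was -0.13.

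Peg10 and Sgce share a promoter region on chromosome 6 and are both paternally expressed. Peg10 (ENSMUSG00000092035, 4747306 to 4760517, plus strand), a retrotransposon-derived gene needed in the placenta, had 624 and 1352 normalized counts for WT and 3033 and 1950 for KO. Both KO libraries were above both WT libraries, with means of 988 ± 514 and 2492 ± 766 (SD, n = 2), a 2.52-fold difference. The log2 fold change was 1.40 with a standard error of 0.47 (limma adjusted p = 0.316, DESeq2 adjusted p = 0.181), and the call held in 1 of the 4 fits with a library left out, that without WT replicate 2 (1.96). Without WT replicate 1, KO replicate 1 or KO replicate 2 it was 0.85, 1.08 and 1.72. Sgce, the epsilon-sarcoglycan gene, did not share the pattern, with 2502 and 2377 in WT and 2949 and 1302 in KO (-0.32, standard error 0.45).

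Of the 2 genes farther along the same domain, Asb4, a suppressor of cytokine signalling box protein, was low, at 9.60 and 10.1 normalized counts for WT and 4.28 and 2.70 for KO (-1.30, standard error 0.72). Ppp1r9a, the actin-binding protein neurabin, had 2087 and 1341 in WT and 1128 and 1616 in KO (-0.31). The groups overlapped for Sgce and Ppp1r9a, and for Asb4 both KO libraries were lower but within a few reads of the floor. Pon3, a paraoxonase gene of the second list that lies in this region too, had 127 and 125 in WT and 5.35 and 6.31 in KO (-4.22, limma adjusted p = 0.120), with a DESeq2 adjusted p of 4.85e-07.

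Zrsr1 and Nap1l5, called lower, are paternally expressed retrogenes that each lie inside a larger host gene. Zrsr1 (ENSMUSG00000044068, chromosome 11, 22972005 to 22976496, plus strand), a relative of the U2 splicing factor small subunit, had 1313 and 1144 normalized counts for WT and 706 and 500 for KO. The KO libraries were well below the WT libraries, with means of 603 ± 146 against 1229 ± 120 (SD, n = 2), a log2 fold change of -1.04 and a standard error of 0.32 (limma adjusted p = 0.290, DESeq2 adjusted p = 0.215). Its host Commd1, a regulator of copper handling and NF-kappaB, had 188 and 245 in WT and 395 and 333 in KO (0.76, standard error 0.36, not called), so that the gene and its host lay on opposite sides. Zrsr1 lies antisense within Commd1, and where counting is not by strand the reads of the pair, and so their ratio, cannot be told apart. Leaving out WT replicate 1 or 2 ended the call for Zrsr1, at -0.94 and -1.14.

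Nap1l5 (ENSMUSG00000055430, chromosome 6, 58905233 to 58907076, minus strand), a nucleosome assembly protein relative expressed in brain, had 145 and 153 normalized counts for WT and 42.8 and 50.5 for KO. The replicates of each label were close together and the groups far apart, with means of 149 ± 5.33 and 46.6 ± 5.42 (SD, n = 2), so that WT was 3.19-fold higher. The log2 fold change was -1.66 with a standard error of 0.45 (limma adjusted p = 0.253), and DESeq2 gave -1.67 (adjusted p = 0.0488). With each library left out it stayed between -1.77 and -1.54, but the call was lost without WT replicate 1 (-1.69) or WT replicate 2 (-1.62). Nap1l5 lies antisense within Herc3 and carries the same limit, as do Mest with Copg2 and Ube3a with Snhg14. Airn with Igf2r, Nnat with Blcap and Gnas with Nespas also overlap on opposite strands and carry this limit. Cdkn1c, one of the called genes, overlaps Gm44732 on the other strand and carries it too. H19, Igf2, Meg3, Mirg, Rtl1, Usp29, Plagl1, Ndn, Snrpn and H13 also overlap annotated genes on the opposite strand. The limit extends to the ratios given below that hold any of these genes, such as Igf2r over Airn and Blcap over Nnat.

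**Figure D3:**
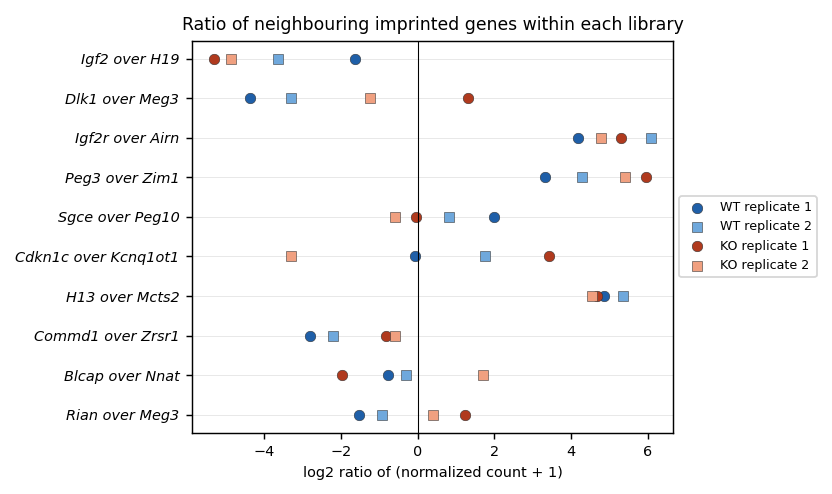
Log2 ratio of normalized count plus 1 for pairs of neighbouring imprinted genes within each library (blue, WT; red, KO; circles, replicate 1; squares, replicate 2). The KO ratios of Dlk1 over Meg3 (1.32 and -1.24) and of Commd1 over Zrsr1 (-0.84 and -0.59) lie to the right of the WT ratios, and those of Sgce over Peg10 (-0.04 and -0.58) to the left.

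Ratios of neighbouring genes within a library do not depend on how libraries were scaled. The 9 pairs were chosen as oppositely expressed, overlapping or shared-promoter neighbours. The KO ratios lay above both WT ratios in 3, below them in 3 and overlapping them in 3. How often other pairs of genes separate in this way was not counted, and 47.9% of all single genes had no overlap between the labels. These counts are therefore only a description of the pairs. One of the 3 pairs below, Igf2 over H19, takes its order from the pseudocount, since WT replicate 1 had no Igf2 read, and gives no order on the reads themselves. No test was run on these ratios. Dlk1 over Meg3 was 0.0478 and 0.102 in WT and 2.51 and 0.422 in KO, a difference of 3.88 on the log2 scale. Commd1 over Zrsr1 was 0.143 and 0.214 in WT and 0.559 and 0.665 in KO, a log2 difference of 1.80. The host thus had fewer reads than the gene inside it in every library, by less in KO.

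Sgce over Peg10, from one shared promoter region, was 4.01 and 1.76 in WT and 0.972 and 0.668 in KO, a log2 difference of -1.72. Peg3 over Zim1 was 10.1 and 20.6 in WT and 70.1 and 44.0 in KO (log2 difference 1.87), where Zim1 had few reads, and H13 over Mcts2 differed by -0.50. The ratios of Igf2r over Airn, Cdkn1c over Kcnq1ot1 and Blcap over Nnat overlapped between the labels. Rian over Meg3, RNAs of the same strand and parental copy, was 0.347 and 0.520 in WT and 2.35 and 1.31 in KO. This pair was added after the values were seen, so its difference only describes these libraries and nothing is concluded from it.

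At the Igf2-H19 domain on chromosome 7, where a shared enhancer is known to serve either gene, both genes were low. H19 (ENSMUSG00000000031, 142575529 to 142578143, minus strand), a maternally expressed noncoding RNA that is abundant in fetal tissue, had 2.13 and 57.9 normalized counts for WT and 81.3 and 132 for KO. The KO libraries were the higher ones, but the WT libraries differed from each other 27.1-fold, more than the groups did. H19 had only 2 reads in WT replicate 1, under the floor of 3 reads, so the size of this spread is uncertain. The log2 fold change of 2.95 had a standard error of 1.41 (limma adjusted p = 0.434) and ran from 0.83 to 5.06 with a library left out, and the call appeared when WT replicate 2 was left out. Igf2, the fetal growth factor, had 0 and 3.68 in WT and 1.07 and 3.61 in KO, at or near the floor of 3 reads in every library, so its difference was not detectable at this depth. In the same cells Igf2r, the receptor that clears IGF2 and is maternally expressed outside neurons, had 1767 and 2882 in WT and 1684 and 3855 in KO (0.18, standard error 0.50). Airn, the antisense RNA that silences Igf2r on the paternal copy, had 97.1 and 41.4 in WT and 41.7 and 139 in KO (0.26, standard error 0.79).

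In the Peg3 domain on chromosome 7, Peg3 itself, a paternally expressed zinc finger regulator of growth and maternal behaviour, had 475 and 378 normalized counts for WT and 526 and 913 for KO (0.71, standard error 0.39). Its neighbours were low, Usp29 at 3.20 and 3.68 in WT and 0 and 2.70 in KO, and Zim1 at 46.9 and 18.4 in WT and 7.49 and 20.7 in KO. Plagl1 (ENSMUSG00000019817, chromosome 10), a zinc finger factor that restrains proliferation and is known to control other imprinted genes, had 3118 and 2568 in WT and 1974 and 1578 in KO. Both KO libraries of Plagl1 were lower, with means of 1776 ± 280 against 2843 ± 388 (SD, n = 2) and a log2 fold change of -0.68 with a standard error of 0.30 (limma adjusted p = 0.396). It was not called in the fit reported here, but was with libraries scaled to equal sums (-0.73) or quantile normalized (-0.81).

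In the Prader-Willi and Angelman region on chromosome 7 the groups overlapped for the 3 genes analysed. Ndn, the growth-restraining protein necdin, had 2608 and 3718 normalized counts for WT and 2722 and 2553 for KO (-0.24, standard error 0.31). Snrpn, a spliceosomal protein gene that shares its transcript with Snurf, had 572 and 682 in WT and 673 and 441 in KO (-0.20). Ube3a, a ubiquitin ligase imprinted in neurons but biallelic in glia, had 1092 and 345 in WT and 204 and 1540 in KO (-0.13, standard error 1.06). Ube3a was therefore high in WT replicate 1 and KO replicate 2 and low in the others. Kcnq1ot1 and Airn, and Snhg14 of the second list, which runs antisense to Ube3a (587 and 161 in WT, 36.4 and 219 in KO), were likewise higher in WT replicate 1 than 2 and in KO replicate 2 than 1. This held for 9 of the 39 imprinted genes, among them Impact, Peg3 and Ppp1r9a, and for 26.3% of all genes, a share near that of the members.

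Nnat, a small endoplasmic reticulum protein gene of developing brain that lies in an intron of Blcap, was the member with the highest mean level, at 82.7 FPKM over the 4 libraries. It had 2500 and 2454 normalized counts for WT but 7359 and 614 for KO, so the KO libraries lay on both sides of WT and differed from each other 11.99-fold. The log2 fold change of -0.22 (standard error 1.12) became 0.66 with edgeR, and ran from -2.01 to 1.57 with a library left out. Blcap had 1457 and 1974 in WT and 1877 and 2014 in KO (0.20). Gfap, the intermediate filament of astrocytes, was split between the KO libraries in the same direction as Nnat, and whether the 2 go together was not tested.

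The remaining loci each held 1 or 2 of the genes and none was called in the fit reported here. Grb10, an adaptor that dampens insulin signalling, had 131 and 1110 normalized counts for WT and 184 and 849 for KO (0.05, standard error 1.19), and so split by replicate number. Gnas, the stimulatory G protein alpha subunit locus, had 2110 and 2155 in WT and 1639 and 1318 in KO (-0.54, standard error 0.28). Inpp5f, a phosphoinositide phosphatase, had 1186 and 925 in WT and 1313 and 1792 in KO (0.55, standard error 0.32). The KO libraries of these last genes lay apart from WT, below for Gnas and above for Inpp5f, by less than that fit could call. Impact, a regulator of the GCN2 stress kinase, had 2197 and 1573 in WT and 1497 and 2396 in KO (0.03), and Rasgrf1, a Ras exchange factor of neurons, had 21.3 and 44.1 in WT and 23.5 and 37.9 in KO (-0.04). H13, a signal peptide peptidase, had 2952 and 3561 in WT and 3793 and 3280 in KO (0.12), while Mcts2, a retrogene inside it on the same strand, had 101 and 85.5 in WT and 149 and 140 in KO (0.63, standard error 0.42).

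Per length and over the 4 libraries, the imprinted genes ranged from 82.7 FPKM for Nnat to 0.00650 FPKM for Usp29, and their median of 6.27 FPKM compared with 2.02 FPKM over all genes tested. In WT, Nnat (66.3 ± 2.80 FPKM, SD, n = 2) was followed by Ndn (41.8 ± 9.18), Osbpl5 (31.0 ± 1.504), Blcap (27.5 ± 5.07) and Impact (27.0 ± 7.08), the last 3 being within their spread of each other. Mest stood lower in WT, below H13, Plagl1, Tssc4 and Cdkn1c, at 15.1 ± 4.80 FPKM, and in KO stood at 84.1 ± 23.1, next to Nnat at 99.1 ± 117. At the other end Igf2 (0.0176 FPKM) and Rtl1 (0.0482 FPKM) were near the floor.

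**Figure D4:**
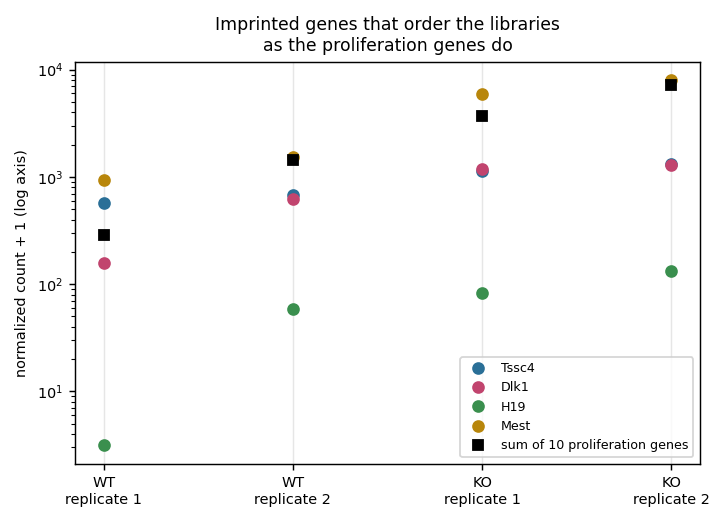
Normalized count plus 1 (log axis) in each library of the 4 imprinted genes that placed the libraries in the same order as the summed proliferation genes (black squares). Mest and the proliferation sum were at 8002 and 7261 in KO replicate 2, and at 925 and 289 in WT replicate 1.

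H19, Dlk1, Mest and Tssc4 had their lowest value in WT replicate 1, then WT replicate 2, KO replicate 1 and KO replicate 2, the order of the summed proliferation genes. All 10 proliferation genes followed this order, as did 9.73% of all genes tested, a share near that of 4 of 39. Cdkn1c, the cell cycle inhibitor, had its lowest value in KO replicate 2, where the proliferation sum was highest. Within WT, however, Cdkn1c was 560 in replicate 1 and 712 in replicate 2, while the sum was 289 and 1432, so both were higher in replicate 2. The part of cell division in these values was not tested.

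Of 26 regulators of imprints, 24 were tested, and Uhrf1, Tdg and Mbd3 were called higher and Dnmt3l lower, 16.7% of the 24 and so near the 13.7% of all genes. Uhrf1, which brings DNMT1 to newly copied DNA, had 67.2 and 258 normalized counts for WT and 368 and 1114 for KO (2.27, standard error 0.83), again in the order of the proliferation sum. Tdg, the glycosylase that removes the oxidized bases made by TET enzymes, had 276 and 431 in WT and 962 and 1324 in KO (1.71, DESeq2 adjusted p = 0.0168). Mbd3, a subunit of the NuRD complex, had 1911 and 2154 in WT and 3893 and 3694 in KO (0.90). For these 3 genes both KO libraries were above both WT libraries. Dnmt3l, a cofactor of methylation in germ cells, had 5.33 and 9.20 in WT and 0 in both KO libraries, close to the floor throughout.

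Apart from Uhrf1, the proteins named above as holding imprints after fertilization (DNMT1, ZFP57, ZFP445 and TRIM28) were not called. Dnmt1 had 974 and 1166 normalized counts for WT and 1324 and 2642 for KO (0.81), and Trim28 had 2595 and 3118 in WT and 3971 and 5223 in KO (0.68). Both were higher in the KO libraries without passing the test. Zfp57 had 93.9 and 159 in WT and 26.8 and 479 in KO (-0.10), and Zfp445 had 3905 and 1738 in WT and 737 and 2625 in KO, so both differed widely between the KO replicates. The median over the 24 genes was 0.19.

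Protein-coding genes within 200 kb of an imprinted gene were counted to set the members beside their surroundings. Of 70 such neighbours tested, 9 were called higher and 8 lower (24.3% in all), with a median log2 fold change of 0.06, beside 8 of the 39 imprinted genes (20.5%) and 13.7% of all genes. DESeq2 called 3 of the neighbours higher and 4 lower of the 63 with an adjusted p, where it called 6.5% of 17024 genes in all. Of the 3 higher, 1 was a neighbour of Mest.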

How the data were processed

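Total RNA of 4 astrocyte cultures (2 WT, 2 KO) was sequenced by the authors and aligned to mm10 (GRCm38), and the aligner, the counting tool and its strand setting are not given in the sources used here. The deposited table is named for FPKM, but its library columns are a signal that equals whole read counts over a library's own size factor. All of its values (100%) were whole multiples of 1 step (tolerance 0.01), and they are called normalized counts here. The deposited columns of group means, log2 fold changes and p-values are the authors' own comparison and were not used. One read was worth 0.901 to 1.07 normalized counts, and the floor of 3 reads 2.70 to 3.21. Intervals and floors cover counting error only.

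Genes with a mean of at least 1 (22094 of 25393) were tested with limma 3.58.1 (variance trend, R 4.3.3) on log2(value + 1), on which the change of a low gene comes out too small, with Benjamini-Hochberg adjustment over all genes tested and no replicate block. Alternatives were edgeR 4.0.16 and DESeq2 1.42.0 on the recovered reads (0 and 1106 genes at an adjusted p under 0.05), a pseudocount of 0.1, no filter, a mean of at least 10, equal sums, quantile normalization, the replicate block, and each library left out. Scripts were tested on simulated data. Gene coordinates are those of the deposited table, and promoters came from the RefSeq table for GRCm38.p6. The 39 members are all named. From fixed lists of imprint regulators, other imprinted genes and cell type markers only some genes are named, in part for their values. Among these, Dio3, Begain, Pon3, Uhrf1, Tdg, Mbd3 and Dnmt3l are the genes called in their lists. The members and lists were chosen with earlier results of these data known.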

Additional observations from a re-analysis of the deposited data

How the results depend on the processing

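All genes called at an adjusted p under 0.05 numbered 1106 with DESeq2 and 0 with limma and edgeR, and imprinted genes 3 with DESeq2 and 0 with limma and edgeR. With each library left out in turn, all genes called at an unadjusted p ranged from 273 to 1820 higher and from 862 to 3026 lower, imprinted genes called from 1 to 4 higher and from 0 to 9 lower, imprinted genes without overlap from 10 to 16 higher and from 14 to 20 lower (29.5% to 38.9% and 34.8% to 41.2% of all genes in these fits), and the median log2 fold change of the imprinted genes from -0.50 to 0.25. Quantile normalization moved the median of all genes from -0.07 to 0.06 and gave 1371 higher and 1537 lower against 1004 and 2028. Over the 39 genes and 12 alternatives 464 values were compared, of which 385 kept direction and side of the threshold, 20 lost a call, 17 gained one and 42 changed sign, and the cause was not tested.

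Signs changed by tool or scaling for Mirg (0.24, quantile), Rtl1 (0.21 edgeR, 0.24 DESeq2), Ube3a (0.21 edgeR, 0.28 DESeq2), Grb10 (-0.000705 equal sums, -0.29 edgeR, -0.26 DESeq2), Nnat (0.66 edgeR, 0.69 DESeq2), Impact (-0.0238 equal sums, -0.0693 quantile, -0.00296 edgeR), H13 (-0.00923 quantile) and Rasgrf1 (0.52 quantile). With a library left out, ranges crossed 0 for Igf2 (-0.60 to 1.63), Igf2r (-0.42 to 0.77), Airn (-0.59 to 1.12), Rian (-0.79 to 1.06), Mirg (-1.14 to 0.55), Rtl1 (-2.64 to 1.22), Sgce (-0.90 to 0.27), Ppp1r9a (-0.63 to 0.0102), Ndn (-0.50 to 0.0158), Snrpn (-0.50 to 0.11), Ube3a (-1.58 to 1.33), Kcnq1ot1 (-3.56 to 0.20), Grb10 (-1.49 to 1.58), Nnat (-2.01 to 1.57), Blcap (-0.0221 to 0.42), Impact (-0.31 to 0.37), H13 (-0.0135 to 0.26) and Rasgrf1 (-0.55 to 0.47).

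Deviations from the group means of same-numbered replicates correlated at -0.08 over 22094 genes, so the numbers were not taken to pair the libraries. With the replicate block 762 genes were higher and 1821 lower at an unadjusted p under 0.05, among them 5 and 5 imprinted genes, H19 and Meg3 being added. With 2 libraries a group, 1 of them alone can decide a call, a fit that leaves one out assumes that the lone library varies like the other group, and Igf2, Usp29 and Rtl1 were too shallow to show a difference.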
